A study of Macaca mulatta with 2 samples.

Results

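The 10 genes described here mark the mural cells of blood vessels, the pericytes of capillaries and the smooth muscle cells of arterioles and venules. They were chosen by symbol, and all 10 were found among the 16684 genes of the deposited table. Total RNA from macaque (Macaca mulatta) optic nerves was sequenced in 2 libraries, named Rep1 and Rep2, from wild-type and untreated tissue. The series describes nerves of 2 animals, whereas the methods of the study give 1 male macaque, 12 years old, whose eyes were collected after death. Both libraries carry the same condition, so there were no groups to compare and no test was possible, and every difference below is one between a pair of libraries. Values are TPM, the transcript's share of all length-corrected reads of a library scaled to a fixed total of 1000000, so that levels can be compared between genes as far as the gene lengths that were used allow. Rep1 was much the shallower library, since a single Rep1 read carried the TPM of 17.2 reads of Rep2, and 6425 genes were listed at 0 in Rep1 against 2082 in Rep2.

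Mural cells wrap the endothelial tube. Smooth muscle cells tighten vessels through a contractile apparatus of smooth muscle actin and myosin, which calponin, transgelin and tropomyosin accompany on the actin filament. Pericytes depend on platelet-derived growth factor B (PDGF-B), released by endothelial cells and sensed through PDGFRB, and the Notch3 receptor maintains mural cells of arteries. In the optic nerve these cells lie along the vessels of the septa and the capillaries between the axon bundles. None of the 10 genes is strictly private to mural cells, since fibroblasts can also make *ACTA2*, *TAGLN* and *PDGFRB*, and striated muscle makes *DES* and *TPM2*.

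Transcripts of the mural genes were found in both libraries, with 9 of the 10 genes above 0 in Rep1 and all 10 in Rep2. Together they reached 391 TPM in Rep1 and 1773 in Rep2, or 0.0391% and 0.177% of all TPM. *ACTA2*, *TAGLN* and *TPM2* headed the list in both libraries, and *MYH11* and *NOTCH3* closed it. All 10 genes were lower in Rep1, and all 10 were at least 2-fold lower on the log2(TPM + 1) scale. Among the 14693 genes above 0 in at least 1 library, 75.9% were lower in Rep1 and 51.3% were at least 2-fold lower, while 14.8% were at least 2-fold higher. Taken as Rep1 minus Rep2, the log2 difference had a median of -2.46 over the 10 genes and -1.07 over all 14693. Of the 10 genes, 7 were at least 4-fold lower, against 30.7% of all genes. Among the 7228 genes with a mean of 10 TPM or more, 54.2% were at least 2-fold lower in Rep1, so that fold was common at the levels of most mural genes too. In bulk tissue, fewer mural cells and less mural RNA per cell cannot be told apart. Nor can either be told from a larger share of RNA from other cells, or from less RNA of other cells that make these genes.

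**Figure D1:**
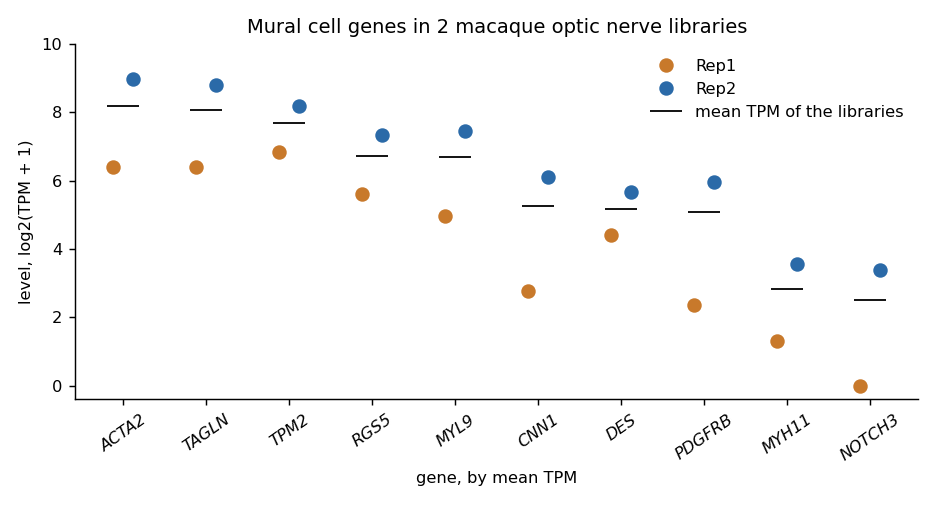
Level of each of the 10 genes in Rep1 and Rep2, as log2(TPM + 1), ordered by mean TPM, with a bar at the log2 of the mean TPM plus 1. Every gene is lower in Rep1, from a narrow gap in *DES* and *TPM2* to a wide one in *PDGFRB*, and *NOTCH3* is listed at 0 in Rep1.

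The contractile filament was represented by actin, myosin heavy chain and myosin light chain. *ACTA2* encodes smooth muscle alpha-actin (chromosome 9, 89200106 to 89217325, minus strand, in the Mmul_10 assembly). It was at 83.2 TPM in Rep1 and 498 in Rep2, with a mean of 290.4 ± 293 TPM (SD, n = 2 libraries), at percentile 96.5 of the genes above 0. These values rested on at least 37 and 3800 reads, the smallest whole numbers that the ratio of the values allows. *ACTA2* was thus an abundant transcript with a spread as wide as its mean. *MYL9*, the regulatory light chain of smooth muscle myosin (chromosome 10, 71792990 to 71801068, plus strand), was at 30.2 TPM in Rep1 and 176 in Rep2, with a mean of 103 ± 103 TPM (SD, n = 2) on at least 17 and 1701 reads. *MYH11*, the smooth muscle myosin heavy chain and the most restricted marker of mature smooth muscle (chromosome 20, 15284858 to 15437191, minus strand), was at only 1.45 TPM in Rep1 and 10.8 in Rep2, with a mean of 6.15 ± 6.64 TPM (SD, n = 2). Its Rep1 value rested on at least 2 reads. The heavy chain therefore stood far below its light chain and its actin partner in each library. *MYH11* overlaps *NDE1* and a locus named *CTSD_1* on the opposite strand, over its exons. The use of strand in counting was not given in the sources used here, so that reads of these genes could not be told apart, and *NDE1* itself was listed at 0 in Rep1 and at 25.4 TPM in Rep2.

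Among the proteins that bind the actin filament, *TAGLN* and *TPM2* were abundant and *CNN1* was intermediate. *TAGLN*, which encodes transgelin, an early marker of the smooth muscle lineage (chromosome 14, 110260031 to 110265630, plus strand), was at 83.3 TPM in Rep1 and 448 in Rep2, with a mean of 266 ± 258 TPM (SD, n = 2) on at least 32 and 2955 reads. *TPM2*, the beta-tropomyosin gene (chromosome 15, 48511990 to 48521882, plus strand), was at 115 TPM in Rep1 and 292 in Rep2, with a mean of 203 ± 126 TPM (SD, n = 2) on at least 64 and 2807 reads. It was the highest of the 10 genes in Rep1 but followed *ACTA2* and *TAGLN* in Rep2. *CNN1*, the gene of calponin, which restrains the myosin motor on actin (chromosome 19, 11302997 to 11314324, plus strand), was at 5.77 TPM in Rep1 and 68.1 in Rep2, with a mean of 36.9 ± 44.1 TPM (SD, n = 2). Its Rep1 value could rest on as little as 1 read. This is a minimum, so the precision of the 11.8-fold ratio between the libraries is not known. *DES* encodes desmin, the intermediate filament of muscle cells (chromosome 12, 106848909 to 106857050, plus strand). It was at 20.2 TPM in Rep1 and 49.6 in Rep2, with a mean of 34.9 ± 20.8 TPM (SD, n = 2) on at least 5 and 211 reads, and its 2.46-fold ratio was the smallest of the 9 genes above 0 in both libraries.

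The receptors and the signalling regulator are the members closest to pericyte identity. *PDGFRB*, the PDGF-B receptor (chromosome 6, 147628117 to 147670191, minus strand), was at 4.16 TPM in Rep1 and 61.3 in Rep2, with a mean of 32.8 ± 40.4 TPM (SD, n = 2) on at least 3 and 760 reads. Its 14.7-fold ratio was the largest of the 9 genes. The read numbers are minimums, so the precision of this ratio is not known. *NOTCH3* (chromosome 19, 14761814 to 14803537, minus strand) was listed at 0 in Rep1 and at 9.37 TPM in Rep2. Of the 3588 genes within 2-fold of *NOTCH3* in Rep2, 891 (24.8%) were also listed at 0 in Rep1, so *NOTCH3* was not detected in Rep1, which does not show that it was missing. *RGS5*, a brake on G protein signalling downstream of vasoactive receptors and a common pericyte marker (chromosome 1, 20669030 to 20728556, minus strand), was at 47.7 TPM in Rep1 and 160.2 in Rep2, with a mean of 104 ± 79.6 TPM (SD, n = 2) on at least 4 and 231 reads. *RGS5* was therefore above both receptors in each library.

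By mean TPM the order was *ACTA2*, *TAGLN*, *TPM2*, *RGS5*, *MYL9*, *CNN1*, *DES*, *PDGFRB*, *MYH11* and *NOTCH3*. None of the 9 pairs of neighbours was separated beyond the spread, meaning that in no pair did the lower value of the higher gene exceed the higher value of the lower gene. Of all 45 pairs of genes, 21 were separated in this way, and 39 stood in the same order in both libraries. The remaining pairs changed order between the libraries, as *RGS5* and *MYL9* did, where *RGS5* was the higher in Rep1 and *MYL9* in Rep2.

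A ratio inside a library does not depend on how the library was scaled, and *ACTA2*, *MYL9* and *TAGLN*, set together after their values were seen, held nearly fixed proportions. *ACTA2* was 2.76 times *MYL9* in Rep1 and 2.83 times in Rep2. It was 0.999 times *TAGLN* in Rep1 and 1.11 times in Rep2, so these 3 genes differed between the libraries by almost the same factor, 5.98-fold for *ACTA2*, 5.82-fold for *MYL9* and 5.37-fold for *TAGLN*. A factor of this size was not particular to mural genes. The fibroblast gene *MGP* differed 5.87-fold and *VIM* 5.23-fold, both picked after their values were seen, and 30.7% of all genes were at least 4-fold lower in Rep1. *ACTG2*, the other smooth muscle actin gene, which is not among the 10, differed 7.19-fold. *ACTA2* was at 8.68 times the level of *ACTG2* in Rep1 and 7.22 times in Rep2. The other members above 0 in both libraries did not share the factor of *ACTA2*, *MYL9* and *TAGLN*, though *MYH11* was near *ACTG2*. *TPM2* (2.55-fold), *DES* (2.46-fold) and *RGS5* (3.36-fold) differed less between the libraries, and *MYH11* (7.48-fold), *CNN1* (11.8-fold) and *PDGFRB* (14.7-fold) differed more. Of these, only *TPM2* had a minimum above 5 reads in Rep1. The other 5 genes had minimums of 1 to 5, and their true read numbers are not known. A low minimum can also come from larger read numbers with a common factor, so the minimums do not rank the genes by their reads. *ACTA2* was 0.727 times *TPM2* in Rep1 and 1.70 times in Rep2, 4.12 and 10.02 times *DES*, and 1.75 and 3.10 times *RGS5*. In the make-up of the summed mural TPM, *TPM2* took 29.3% in Rep1 and 16.5% in Rep2, *DES* 5.17% and 2.80%, and *RGS5* 12.2% and 9.04%, whereas *ACTA2* took 21.3% and 28.1% and *TAGLN* 21.3% and 25.3%. The 6 genes of the contractile filament and its binding proteins summed to 76.6 times the 2 receptors in Rep1 and 21.1 times in Rep2. In Rep1 the receptor sum was the 4.16 TPM of *PDGFRB* alone, since *NOTCH3* was listed at 0 there. With 2 libraries, the constancy of a ratio is a description and was not tested.

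**Figure D2:**
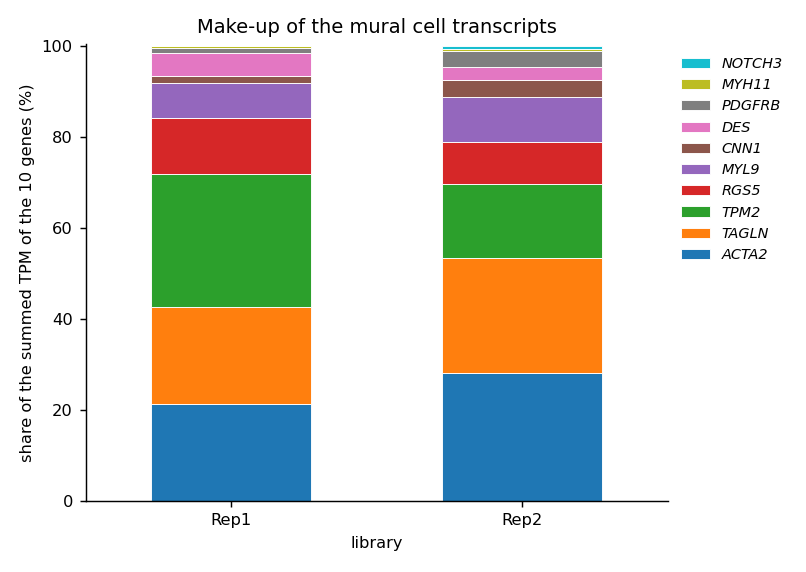
Share of each gene in the summed TPM of the 10 genes, in percent, for Rep1 and Rep2. *TPM2* takes a larger part of the bar in Rep1 (29.3% against 16.5%) and *ACTA2* a larger part in Rep2 (28.1% against 21.3%).

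The mural genes belong to families whose other members are made by many cells, and most of them were minor members of their family in the nerve. *ACTA2* made up 0.808% of the summed TPM of the 6 actin genes in Rep1 and 6.95% in Rep2, rank 3 after *ACTB* and *ACTG1*, the cytoplasmic actins, with *ACTG2*, *ACTC1* and *ACTA1* below it. *MYH11* made up 0.864% and 3.07% of the 4 non-sarcomeric myosin heavy chains, in which *MYH9* and *MYH10* dominated and *MYH14* was lowest. *MYL9* took 3.13% in Rep1 and 7.09% in Rep2 of a light chain list led by *MYL6*, followed by *MYL12A* and *MYL12B*, with *MYL6B* last. This list joins essential chains, such as *MYL6*, with regulatory ones, such as *MYL9*, so its shares are not shares of the regulatory chains. *MYL9* differed 5.82-fold between the libraries, *MYL12B* 5.57-fold and *MYL12A* 4.69-fold, but *MYL6* only 1.77-fold. *CNN1* was the lowest of the 3 calponins, with 3.14% and 13.0%, beneath *CNN2* and the leading *CNN3*. *TPM2* held 6.56% and 19.9% of the 4 tropomyosins and had rank 3 in both libraries, *TPM3* being the highest. *TPM1* held 17.4% and 16.9%, while *TPM4* moved from the lowest share, 3.03%, in Rep1 to 26.7% in Rep2. *DES* was 1.70% and 0.700% of the type III filament genes, where *GFAP* of astrocytes and *VIM* led and *PRPH* was lowest.

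In a few families the mural gene was the main one. *RGS5* made up 58.5% of the summed TPM of 10 related RGS genes in Rep1 and 56.7% in Rep2, a difference of under 2 percentage points although the level of *RGS5* differed 3.36-fold. *RGS1*, *RGS2* and *RGS16* followed it in each library, *RGS3*, *RGS4*, *RGS8* and *RGS18* were lower, and *RGS13* and *RGS21* were listed at 0 in both. *TAGLN* held 59.1% and 73.1% of the transgelins, against 35.5% and 2.29% for *TAGLN3*, a neuronal gene, and 5.33% and 24.6% for *TAGLN2*. *PDGFRB* exceeded *PDGFRA*, the receptor of fibroblasts and oligodendrocyte precursors, by 4.04 times in Rep1 and 1.54 times in Rep2. *NOTCH3* made up 16.6% of the 4 Notch receptors in Rep2, behind *NOTCH2* at 54.4% and *NOTCH1* at 25.4% and ahead of *NOTCH4* at 3.52%.

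**Figure D3:**
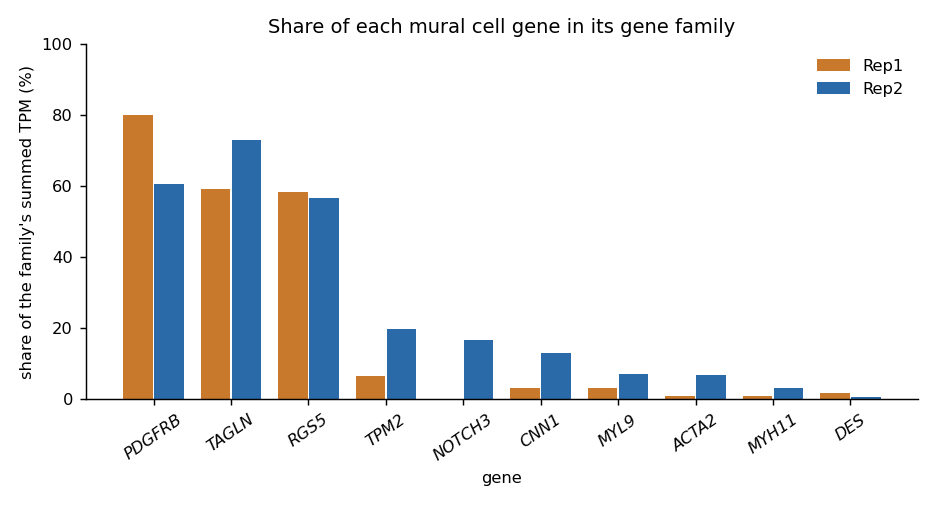
Share of each of the 10 genes in the summed TPM of its own gene family, in percent, with a bar for Rep1 and one for Rep2. *PDGFRB*, *TAGLN* and *RGS5* hold more than 50% of their family in both libraries, and the other 7 genes hold less than 20%.

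Reads from such families can be shared, and the transcripts of the Mmul_10 annotation were compared for this. A 50-base window stands in for a read, whose length was not given in the sources used here. None of the 1237 windows of the *ACTA2* transcript occurred exactly in a transcript of another gene, and the same held for *MYL9*, *TAGLN*, *TPM2*, *DES*, *PDGFRB*, *NOTCH3* and *RGS5*. In *CNN1*, 38 of 1584 windows (2.40%) were shared with 1 locus on the opposite strand, and in *MYH11*, 998 of 6867 (14.5%) were shared with 4 other genes. By contrast, 88.1% of the windows of *ACTB* were found in other genes, so the denominators of the actin shares are less certain than *ACTA2* itself. The same limit holds for the light chain, calponin and tropomyosin shares, with 70.3% of windows shared in *MYL6*, 60.3% in *CNN3* and 57.8% in *TPM4*. *MYL9*, *TAGLN* and *RGS5* also overlap a locus without a gene symbol on the opposite strand. The last 60 coding bases of the actin genes show how the muscle actin transcripts differ although their proteins are nearly alike, and they are printed 5′ to 3′ on the coding strand of Mmul_10, with capitals at each base that differs from *ACTA2*.
ACTA2 (chr9:89200204-89200263, minus strand): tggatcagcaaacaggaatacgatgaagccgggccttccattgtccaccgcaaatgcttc
ACTG2 (chr13:34912007-34912066, minus strand): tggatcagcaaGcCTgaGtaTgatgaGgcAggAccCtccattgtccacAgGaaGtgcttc
ACTA1 (chr1:19574089-19574148, plus strand): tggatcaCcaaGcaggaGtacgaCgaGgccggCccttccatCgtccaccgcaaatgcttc
ACTB (chr3:38643459-38643518, minus strand): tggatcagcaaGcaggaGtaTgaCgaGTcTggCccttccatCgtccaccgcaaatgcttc
The stretch of *ACTG2* differs from that of *ACTA2* at 12 of 60 bases, that of *ACTA1* at 7 and that of *ACTB* at 9. *ACTG2* was at 9.59 TPM in Rep1 and 68.9 in Rep2, whereas *ACTA1*, the actin of skeletal muscle, was at 6.54 TPM in Rep1 and 0.127 in Rep2.

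Smooth muscle genes are classically controlled by serum response factor, which binds a 10-base element named the CArG box. The element was searched without mismatch, on both strands, from 250 bases before to 50 bases after the annotated gene start. It was found in 2 of the 10 genes, *MYL9* and *TAGLN*, and in 249 of 20787 promoters of protein-coding genes (1.20%). The sequences below are from Mmul_10, 5′ to 3′ on the strand of the gene, with the element in capitals.
MYL9 (chr10:71792939-71792978, plus strand): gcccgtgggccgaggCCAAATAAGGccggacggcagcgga
TAGLN (chr14:110259930-110259969, plus strand): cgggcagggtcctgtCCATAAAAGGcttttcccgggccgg
The element begins 36 bases before the annotated start of *MYL9* and 86 bases before that of *TAGLN*. No exact match was found in the window of *ACTA2* or of the other 7 genes, which says only that these letters are not in that window. The letters TGGGAA, the core of the element read by the Notch partner RBPJ, were present on either strand in *ACTA2*, *MYH11* and *RGS5*, 3 of 10 genes, against 22.8% of all promoters. These matches are descriptions of sequence and not sites shown to be used.

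Further genes of mural cells were examined as lists. Beside their counts stand the shares over all 14693 genes, 51.3% at least 2-fold lower and 14.8% at least 2-fold higher in Rep1, with a median of -1.07. Of 20 other contractile genes, all above 0 in at least 1 library, 14 were at least 2-fold lower in Rep1 and 1 was at least 2-fold higher, with a median log2 difference of -1.85. The highest by mean were *MYL6*, the essential light chain of many cell types (745 TPM in Rep1 and 1319 in Rep2), *PPP1R14A*, an inhibitor of myosin phosphatase (127 and 641 TPM), and *TPM1* (304 and 248 TPM). None of this list was listed at 0 in both libraries, but 4 genes were at 0 in Rep1. Of 14 other pericyte genes, 9 were at least 2-fold lower in Rep1 and 2 were at least 2-fold higher, with a median of -2.27. *NDUFA4L2* was at 28.0 TPM in Rep1 and 271 in Rep2, and *MCAM*, an adhesion molecule, at 8.64 and 82.4 TPM. *CD248*, the gene of endosialin, was at 1.54 and 29.1 TPM. None of these pericyte genes was at 0 in both libraries, but 4 were at 0 in Rep1. Among them were *CSPG4* (0.804 TPM in Rep2), *HIGD1B* (5.38 TPM in Rep2) and *COX4I2* (12.6 TPM in Rep2), named after their values were seen. The 2 genes at least 2-fold higher in Rep1, also named after their values were seen, were *KCNJ8* and *GJC1*. *KCNJ8*, the pore of a vascular ATP-sensitive potassium channel, was at 17.7 TPM in Rep1 and 0.953 in Rep2. The connexin gene *GJC1* was at 28.0 and 0.224 TPM. *ABCC9*, which encodes the partner subunit of the *KCNJ8* channel, was listed at 0 in Rep1 against 0.923 TPM in Rep2.

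Genes that act with the 2 receptors were mixed in direction. Of 18 other PDGF and Notch genes, 7 were at least 2-fold lower in Rep1 and 4 were at least 2-fold higher, with a median of -0.70. Over all genes 51.3% were lower and 14.8% higher by that fold. The highest were *RBPJ* (137 TPM in Rep1 and 170.2 in Rep2), the Notch target *HES1* (182 and 39.4 TPM) and the ligand gene *PDGFA* (25.7 and 37.8 TPM). *PDGFB*, the ligand of *PDGFRB*, was at 29.4 TPM in Rep1 and 5.61 in Rep2, opposite in direction to its receptor. *HEYL*, a Notch3 target of mural cells, was listed at 0 in Rep1 and at 5.11 TPM in Rep2. Of the genes within 2-fold of *NOTCH3* in Rep2, a range that holds *HEYL*, 24.8% were listed at 0 in Rep1. In the same list *HEY1* (9.47 and 2.98 TPM) and *NRARP* (4.14 and 0.789 TPM) were higher in Rep1, and *HEY2* (0.384 and 5.26 TPM) was lower. *PDGFB*, *HEYL*, *HEY1*, *NRARP* and *HEY2* were named after their values were seen. Of 8 transcription factors of mural cells in the table, 3 were at least 2-fold lower and 2 at least 2-fold higher in Rep1, with a median of -0.33. *NR2F2*, a factor of veins, was at 66.9 and 56.0 TPM, *FOXC1* at 12.03 and 32.3 TPM, and *SRF*, which binds the CArG box, at 30.5 and 1.88 TPM. *MYOCD*, the smooth muscle partner of serum response factor, was listed at 0 in Rep1 and at 0.408 TPM in Rep2, and was named after its value was seen.

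**Figure D4:**
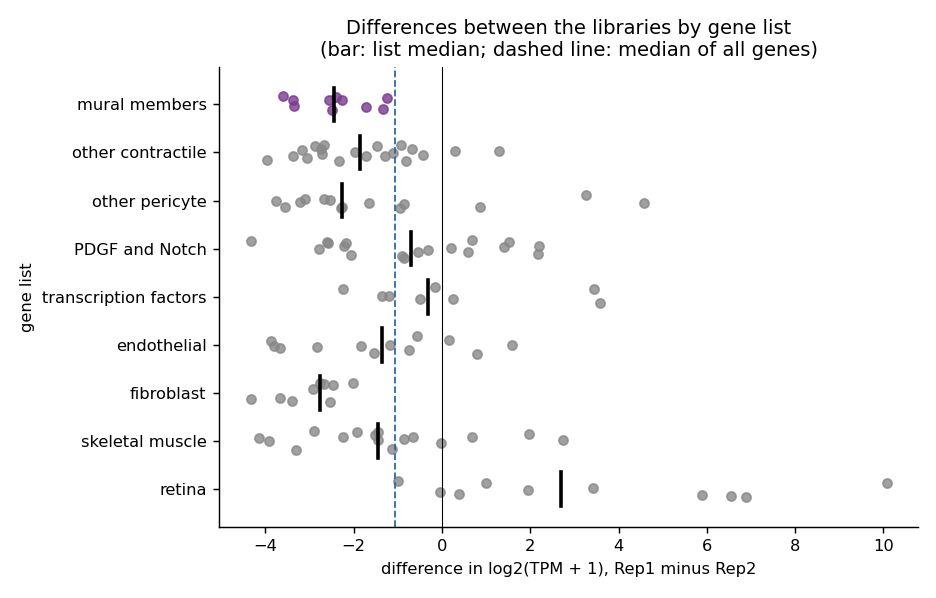
Difference in log2(TPM + 1), Rep1 minus Rep2, of each gene above 0 in at least 1 library, by gene list, with the list median as a bar and the median of all 14693 genes as a dashed line. The 10 mural genes lie between -3.59 and -1.26, all left of the dashed line at -1.07, and the retinal genes run from -0.99 to 10.1.

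Markers of other cells were set beside the mural genes. The 12 endothelial genes summed to 67.4 TPM in Rep1 and 176 in Rep2, led by *PECAM1* (18.7 and 43.5 TPM), *KDR* (20.8 and 18.7 TPM) and *CLDN5* (8.38 and 26.1 TPM), with none listed at 0 in both libraries. The median difference of the endothelial genes was -1.35, with 7 at least 2-fold lower and 1 at least 2-fold higher in Rep1, against 51.3% and 14.8% of all genes. The summed mural genes were 5.79 times the summed endothelial genes in Rep1 and 10.1 times in Rep2, a mean of 7.93 ± 3.02 (SD, n = 2). The 9 fibroblast genes were all at least 2-fold lower in Rep1, with a median of -2.76, and summed to 2143 TPM in Rep1 and 18260 in Rep2. They were led by *DCN* (995 and 10505 TPM), *COL1A2* (320.2 and 2440.1 TPM) and *MGP* (256 and 1505 TPM). Against fibroblasts the mural genes were relatively higher in Rep1, at 0.182 times the fibroblast sum there and 0.0971 times in Rep2. The part of fibroblasts in the levels of *ACTA2*, *TAGLN* and *PDGFRB* was not tested.

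Striated muscle, which makes *DES* and *TPM2*, lies close to the nerve in the orbit. Of 22 skeletal muscle genes in the table, 16 were above 0, and they summed to 46.1 TPM in Rep1 and 194 in Rep2, led by the troponin genes *TNNI1* (7.98 and 66.3 TPM), *TNNC1* (12.4 and 37.8 TPM) and *TNNT3* (0.958 and 28.6 TPM). In the list, *MYH1*, *MYH2*, *MYH13*, *MB*, *MYL1* and *MYL2* were at 0 in both libraries, whereas other genes of striated muscle were above 0, among them *TTN* (3.08 and 10.2 TPM), *ACTA1* and *TNNI2* (8.39 and 1.38 TPM), and *RYR1* was at 0 in Rep1 and at 8.86 TPM in Rep2. These genes were named after their values were seen, and the part of striated muscle in the levels of *DES* and *TPM2* was not tested. The summed mural genes were 8.48 times the summed skeletal muscle genes in Rep1 and 9.14 times in Rep2. Of the 10 retinal genes, 8 were higher in Rep1, 6 of them at least 2-fold. The 2 lower ones were *RPE65* (6.05 and 13.1 TPM) and *SAG* (1.74 and 1.82 TPM). The list had a sum of 3181 TPM in Rep1 and 21.2 in Rep2, led by *GNAT1* (2763 and 1.56 TPM), *GNAT2* (199.9 and 0.687 TPM) and *PDC* (103 and 0.120 TPM). *HBB* of erythrocytes was at 4515 TPM in Rep1 and 1087 in Rep2. *ALAS2* was at 21.9 and 9.84 TPM, *HBA1* was listed at 0 in Rep1 and at 1.06 TPM in Rep2, and the remaining erythrocyte gene in the table was below 1 TPM in both. The part of retinal and blood RNA in the lower mural values of Rep1 was not tested.

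Scaling the libraries by the median of their ratios removed a median Rep1 shift of -1.19 (log2). All 10 mural genes stayed lower in Rep1, as were 64.8% of all genes, with a median of -1.34 against -0.38 over all genes. Not every list shared that shift. The 12 genes used in every cell type, such as *ACTB*, had a median of 0.54 as deposited and 1.73 after this scaling. The scaling took *TPM2* to -0.16, *DES* to -0.10 and *RGS5* to -0.55, so that 7 genes remained at least 2-fold lower, against 33.8% of all genes lower and 23.7% higher by that fold. Under the same median-of-ratios scaling, *ACTA2* was at -1.38, *MYL9* at -1.33, *TAGLN* at -1.23 and *PDGFRB* at -2.51. The medians of the other contractile and pericyte genes stayed below 0, at -0.90 and -1.35, whereas those of the PDGF and Notch genes and of the transcription factors turned to 0.19 and 0.36. With Rep1 instead multiplied by 2.30, the factor that brings the median ratio of the 9 endothelial genes above 0 in both libraries to 1, again 7 mural genes were at least 2-fold lower, against 36.9% of all genes. That factor leaves out *VWF*, *ESAM* and *EMCN*, which were listed at 0 in Rep1, and all 12 endothelial genes still had a median difference of -0.22 after it. The 12 genes used in every cell type had a median of 1.74 after it.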

How the data were processed

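RNA was sequenced from 2 untreated optic nerve libraries. Per the methods and the processing notes of the submitters, reads were checked with FastQC 0.11.9, trimmed with Trim Galore 0.6.6, aligned to Mmul_10 with STAR 2.7.1a and counted per gene with featureCounts 1.5.3. The authors then normalized the counts to TPM and deposited the TPM of each library, which sum to 1000000. The gene lengths, the strand setting and the handling of reads with several alignments were not given in the sources used here. The columns Rep1 and Rep2 could not be paired with the sample titles and were used as replicates of the condition.

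Levels were taken as deposited. Differences were taken as log2(TPM + 1), which understates those of low genes. The smallest whole read numbers came from the ratio of a gene's values, with a tolerance of 1e-12. They were found for 99.9% of the 10168 genes above 0 in both libraries, and the absolute depth is unknown. The calculations were tested on simulated data. Coordinates and sequences came from the RefSeq annotation and genome of Mmul_10, and the comparison of family proteins was replaced by one of transcripts. Python 3.11, numpy 2.4.6, pandas 2.3.3 and matplotlib 3.10.9 were used. The genes and lists were chosen with earlier results of these data known. The rule named every gene of the 10 and of their families and the 3 highest of each other list. Of the listed genes, *MYH7*, *MRTFA*, *MRTFB*, *HBA* and *HBA2* were not analysed here. The values of 12 genes used in every cell type, such as *ACTB*, had a median log2 difference of 0.54.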

Additional observations from a re-analysis of the deposited data

How the results depend on the processing

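No paired analysis was possible because both libraries belong to 1 condition. The median log2 difference of the 10 mural genes, -2.46 as deposited, was -2.56 with a pseudocount of 0.1, -1.34 with median-of-ratios scaling, -2.63 without the 10 most abundant genes and -1.35 with Rep1 scaled to the 9 endothelial genes above 0 in both libraries. It stayed below 0 in each. The number at least 2-fold lower in Rep1 was 10 as deposited and 7 under both of those scalings, and 7 genes were at least 4-fold lower. The median over all genes, -1.07, was -1.52 when low genes under a mean of 1 TPM were left out and -1.30 when those under 10 TPM were. The summed mural level ran from 391 to 1773 TPM between single libraries and the ratio to the endothelial sum from 5.79 to 10.1. For single genes, 46 of 50 values under other settings stayed within the SD of the libraries and 4 moved, all of them percentiles among other sets of genes. Each of 2 libraries lies within 1 SD of their mean by construction, and so does their geometric mean, which is among the 50 values. Neither the single-library values nor the geometric means say anything about stability. The SD was also wide, as in *ACTA2* at 290.4 ± 293 TPM (SD, n = 2), so staying within it is weak evidence of stability for the other settings. The depth of Rep1 limits *NOTCH3*, *CNN1*, *MYH11* and *PDGFRB* most.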
